A study of Mus musculus with 8 samples.

Results

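Mitosis and G2/M genes were followed in mouse aortic smooth muscle cells (MASMCs) with and without Hint1. The list holds 53 genes that encode G2/M cyclins and kinases and proteins of the kinetochore, spindle, condensin and cytokinesis machinery. Members were found by gene symbol among the 18533 symbols of the count files, and all 53 were present and passed the filter on low counts, which kept 13535 genes. The cells were taken from the aortas of male WT and Hint1-/- mice on a C57BL/6J background, 4 to 6 weeks old, and the deletion was in the whole body. All 8 samples, 4 per genotype, received 20 ng/mL of the growth factor PDGF-BB for 24 hours, so no untreated cells were compared. HINT1 is a histidine triad nucleotide-binding protein.

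Cells that enter mitosis switch on a shared set of genes late in the cell cycle. CDK1 with its B-type cyclins drives entry into mitosis, the kinetochore, kinesins and spindle proteins attach and move the chromosomes, and the anaphase-promoting complex with CDC20 and UBE2C destroys cyclins and securin at exit. Transcription of these genes peaks in G2 and M through the MuvB complex with B-MYB (encoded by Mybl2) and FOXM1, often at a short promoter element, the cell cycle genes homology region (CHR), while in arrested cells the DREAM complex holds the same promoters silent. Vascular smooth muscle cells are mostly quiescent in the vessel wall and divide in culture under PDGF-BB.

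Hint1 itself, read first as a check of the labels, measured 109, 111, 113 and 110.2 CPM, that is estimated counts in a library scaled to 1000000, in the WT samples and 34.4, 36.1, 37.4 and 34.4 CPM in the Hint1-/- samples. Each Hint1-/- sample lay below each WT sample (log2 fold change, Hint1-/- over WT, -1.64, SE 0.04, adjusted p = 6.77e-16). The samples held 20778077 to 20888041 estimated counts each, and counts of members ran from 198 to 4801 per sample. Summed levels of 10 smooth muscle markers were 1375 to 1495 CPM in WT and 1130 to 1220 CPM in Hint1-/- samples, with 7 of 9 tested genes lower and 1, Smtn, higher. Cnn1, Myh11, Des and Actg2 fell past both of the thresholds given in the next paragraph. Macrophage markers summed to 2667 to 3053 and 2185 to 2344 CPM, with 8 of 9 tested genes lower. Fibroblast markers summed to 6887 to 7414 and 7412 to 8069 CPM, with 5 of 10 genes higher and 3 lower. Schwann cell markers summed to 68.4 to 74.2 and 27.8 to 30.8 CPM, with 7 of 9 tested genes lower, and endothelial markers to 8.15 to 10.9 and 8.48 to 10.5 CPM, with 0 of 7 tested genes passing in edgeR and 2 of 7 at an unadjusted p under 0.05. Except where an unadjusted p is named, these marker counts are at an adjusted p under 0.05 in edgeR. At that limit 11.2% of all tested genes were higher and 10.2% lower. An unadjusted p under 0.05 was found for 32.8% of all tested genes. No marker was at 0 in every sample. The part of these other cell types in the results on the mitotic genes was not tested, and in bulk RNA more dividing cells and more mitotic RNA per cell cannot be told apart.

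Most mitotic genes were slightly higher in Hint1-/- cells. Of the 53 members, 41 (77.4%) were higher and 1, Mybl2, was lower at an adjusted p under 0.05, while 11.2% of all tested genes were higher and 10.2% lower (21.5% in either direction). The changes were small. The largest increase was 1.32-fold, for Cenpf, and 0 members passed the study's second threshold, a fold change over 1.5, which 1.34% of all tested genes passed upward and 1.49% downward (2.83% in either direction) together with the adjusted p. DESeq2, limma-voom and edgeR's test against the fold limit also gave 0 members past both thresholds, and 45 members had an unadjusted p under 0.05 in edgeR, as did 32.8% of all tested genes. For all 53 members the upper bound of the 95% interval lay under a fold change of 1.5.

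The median log2 fold change was 0.17 over the members, with a range of -0.17 to 0.41, and 0.0003 over all tested genes. A positive log2 fold change was measured for 51 of 53 members (96.2%) and for 50.1% of all tested genes. In 34 members (64.2%) all 4 Hint1-/- samples lay above all 4 WT samples, a pattern that 11.9% of tested genes had, and in 0 members did they all lie below, a pattern of 11% of tested genes. With each sample left out in turn, 30 to 40 members were higher, the lowest number without Hint1-/- replicate 2, and DESeq2 called 31. In every one of these fits 51 members had a positive log2 fold change.

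**Figure D1:**
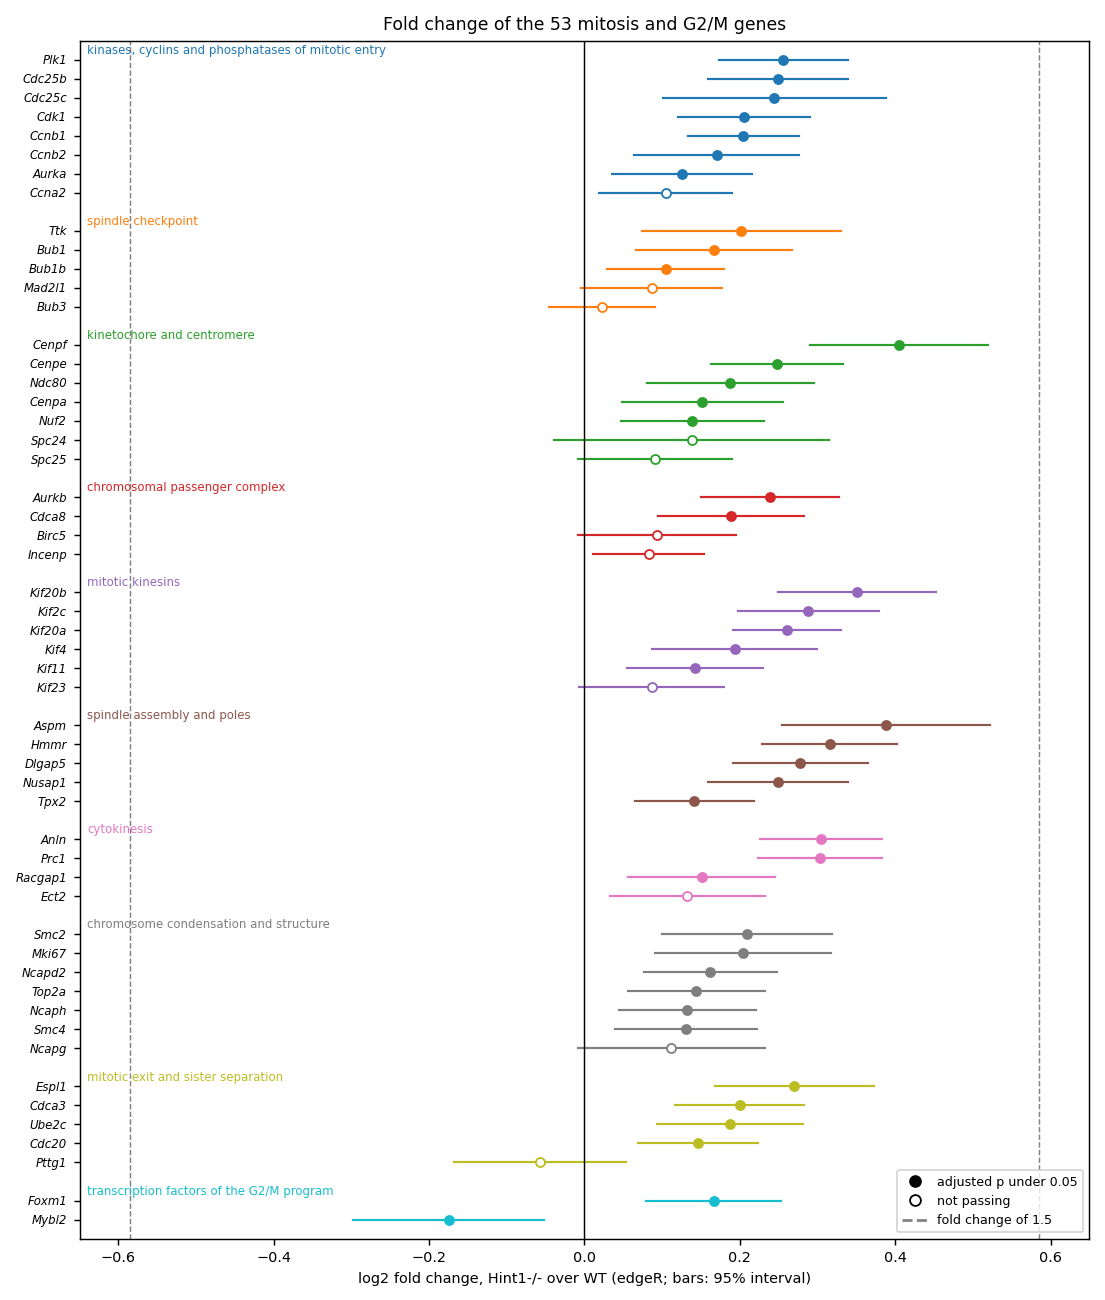
Log2 fold change of each of the 53 members, Hint1-/- over WT (horizontal axis), with its 95% interval from edgeR. Genes are grouped by role, filled points passed an adjusted p of 0.05, and dashed lines mark a fold change of 1.5 in either direction. The 41 filled points right of 0 and the single one left of it, Mybl2, all lie inside the dashed lines.

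The size of the difference was also seen in each sample. The median over members of log2 CPM minus the gene's mean over the 8 samples was -0.09, -0.03, -0.11 and -0.14 in the WT samples and 0.11, 0.13, 0.08 and 0.07 in the Hint1-/- samples. The genotypes did not overlap, and WT replicate 2 was the WT sample nearest to the Hint1-/- samples. In the WT samples 6, 9, 4 and 4 of the 53 members lay above their own mean, and in the Hint1-/- samples 51, 51, 46 and 44 did. Members made up 0.302% to 0.326% of all counts in WT and 0.347% to 0.356% in Hint1-/- cells.

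**Figure D2:**
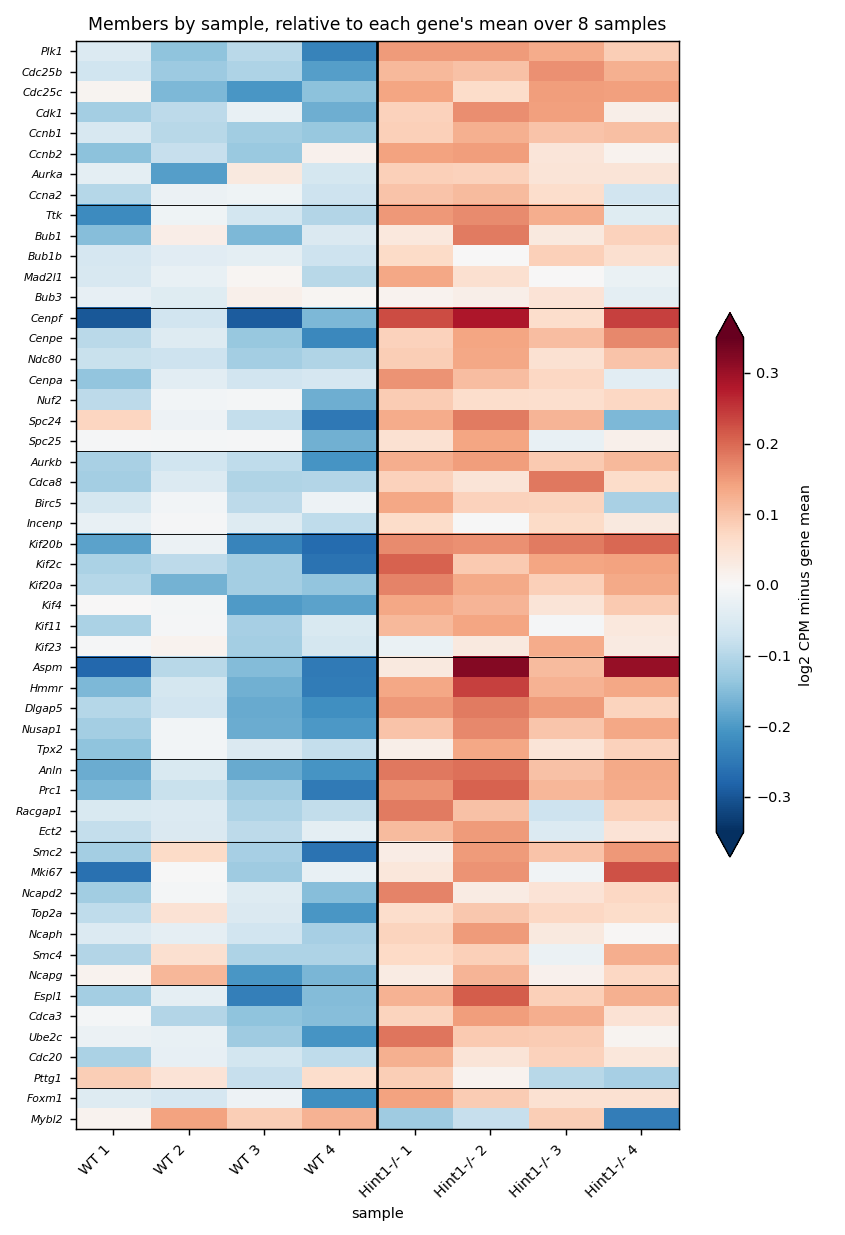
Log2 CPM of the 53 members (rows, grouped by role) in the 4 WT and 4 Hint1-/- samples (columns), each minus the gene's mean over the 8 samples. Red cells lie above the mean and blue cells below it. The columns change from blue to red at the genotype border for most rows, and Mybl2, in the last row, runs the other way.

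Promoters were read for the members because the set is known for shared promoter elements. The RefSeq table of promoters, on build GRCm38.p6, held 46 promoters of 43 members, each 250 bases before to 50 bases after a transcript start. Ccna2, Cdc25c, Spc24, Aurkb, Incenp, Kif20a, Tpx2, Dlgap5, Smc4 and Foxm1 had no entry. The windows below show 130 bases before and 20 after the start of the 4 members with the largest changes among those that passed and held a CHR, which are also the 4 largest of all members. They come from chr1:189688067-189688216 on the minus strand (Cenpf), chr1:139454643-139454792 on the plus strand (Aspm), chr19:34922228-34922377 on the plus strand (Kif20b) and chr11:40733418-40733567 on the minus strand (Hmmr). Capitals mark CHR letters, which are TTTGAA and its variant forms TTCGAA and also CTTGAA, and CCAAT boxes on either strand, a CCAAT on the other strand being read as ATTGG.
Cenpf: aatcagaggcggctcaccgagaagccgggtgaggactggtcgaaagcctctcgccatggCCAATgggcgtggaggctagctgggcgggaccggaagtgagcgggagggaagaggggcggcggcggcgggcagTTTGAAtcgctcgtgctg
Aspm: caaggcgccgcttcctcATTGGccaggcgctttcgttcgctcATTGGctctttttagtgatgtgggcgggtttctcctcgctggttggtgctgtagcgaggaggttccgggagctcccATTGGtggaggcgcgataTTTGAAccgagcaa
Kif20b: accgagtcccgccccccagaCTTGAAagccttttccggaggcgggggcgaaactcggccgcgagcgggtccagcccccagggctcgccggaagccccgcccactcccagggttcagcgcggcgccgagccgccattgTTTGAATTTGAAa
Hmmr: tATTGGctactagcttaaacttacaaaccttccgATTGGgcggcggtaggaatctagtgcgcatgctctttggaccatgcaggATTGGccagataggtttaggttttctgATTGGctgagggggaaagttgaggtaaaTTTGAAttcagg
All 4 held TTTGAA in the first bases after the start, and Kif20b held it in 2 adjoining copies and a CTTGAA farther upstream. The windows of Cenpf, Aspm and Hmmr held 1, 3 and 4 CCAAT boxes, and that of Kif20b held 0.

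Over all member promoters, 38 of 46 (82.6%) held a CHR on either strand, against 24.1% of the 18246 promoters of symbols in the count files. The CCAAT box was in 76.1% of member promoters and 37.6% of all, and both motifs together in 71.7% and 9.69%. A CHR and a CCAAT box can share at most 1 base where they touch, and the CHR forms can overlap each other. Within 50 bases on either side of the start, a CHR was in 35 of 46 member promoters (76.1%), in 4 of 44 promoters of DNA replication and G1/S genes (9.09%) and in 6.69% of all promoters. The 35 members with a CHR had a median log2 fold change of 0.19, and 29 of them were higher. The 8 matched members without it, Birc5, Ccnb1, Cenpe, Mad2l1, Mybl2, Ncaph, Nuf2 and Nusap1, had a median of 0.14, and 5 of them were higher. These matches describe letters in a window and were not tested against the fold changes.

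**Figure D3:**
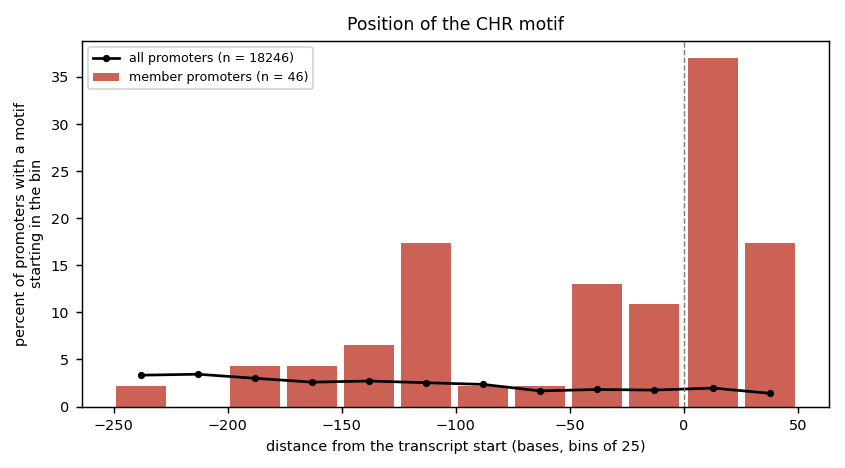
Percent of promoters with a CHR motif starting in each bin of 25 bases, by distance from the transcript start, for the 46 member promoters (bars) and all 18246 promoters (line). The bars are highest just after the start, at 37% in the first bin against 1.96% for all promoters.

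Kinases, cyclins and phosphatases of mitotic entry were led by Plk1, and 7 of 8 members of the group rose. Cdk1, the kinase that drives entry into mitosis (chr10:69335146-69352938, mm10, minus strand), measured 71.4, 72.7, 76.2 and 68.8 CPM in WT and 82.0, 86.8, 85.7 and 78.7 CPM in Hint1-/- samples. The lowest Hint1-/- sample lay just above the highest WT sample (log2 fold change 0.21, SE 0.04, adjusted p = 0.00109). Ccnb1, the cyclin B partner of CDK1 (chr13:100778650-100786570, mm10, minus strand), measured 64.6, 62.7, 61.7 and 61.2 CPM in WT and 71.1, 73.1, 71.9 and 72.2 CPM in Hint1-/- samples. The 2 ranges were apart (log2 fold change 0.20, SE 0.03, adjusted p = 0.000208). Plk1, a kinase of centrosome maturation and mitotic progression, measured 80.5, 75.4, 77.8 and 70.7 CPM in WT and 92.2, 92.2, 91.0 and 88.2 CPM in Hint1-/- samples. WT replicate 4 was lowest and the genotypes did not overlap (log2 fold change 0.26, SE 0.04, adjusted p = 9.5e-05).

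Ccna2, the cyclin of S phase and early mitosis, measured 78.9, 83.5, 83.8 and 80.4 CPM in WT and 90.7, 91.4, 88.3 and 80.8 CPM in Hint1-/- samples. Hint1-/- replicate 4 lay inside the WT range, and the log2 fold change of 0.10 (SE 0.04) did not pass (adjusted p = 0.0765), but did without that sample (adjusted p = 0.0123). The phosphatases that activate CDK1 were both higher, Cdc25b from 30.7 ± 1.10 to 36.5 ± 0.65 CPM (SD, n = 4) and Cdc25c from 10.1 ± 0.66 to 11.9 ± 0.32 CPM (SD, n = 4). Ccnb2, another B-type cyclin, had a log2 fold change of 0.17 and overlapped between genotypes. Aurka, the kinase of spindle poles, had one of 0.13. Aurka lost its call in 7 of the fits with 1 sample left out, Ccnb2 in 4 and Cdc25c in 1. The adjusted p reached 0.127 for Aurka (without WT replicate 2), 0.074 for Ccnb2 and 0.054 for Cdc25c (both without WT replicate 3). Aurka, Ccnb2 and Cdc25c also did not pass in DESeq2 (adjusted p = 0.091, 0.0554 and 0.0712).

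Spindle checkpoint genes, which delay anaphase until chromosomes are attached, had a median log2 fold change of 0.10, and 3 of 5 rose. These were Ttk (0.20), Bub1 (0.17) and Bub1b (0.10). All 3 calls were marginal. With each sample left out in turn, Bub1b lost its call in 7 fits, Ttk in 4 and Bub1 in 3. The adjusted p reached 0.0855 for Ttk without WT replicate 1, 0.0739 for Bub1 without Hint1-/- replicate 2 and 0.11 for Bub1b without WT replicate 4. Ttk and Bub1b also did not pass in DESeq2 (adjusted p = 0.0517 and 0.164). Bub3, which carries BUB1 and BUB1B to kinetochores, measured 128.7 ± 2.61 CPM in WT and 130.7 ± 3.06 CPM in Hint1-/- cells (SD, n = 4), with a log2 fold change of 0.02 (adjusted p = 0.677). Mad2l1, the checkpoint protein that holds CDC20, had a log2 fold change of 0.09 (adjusted p = 0.177).

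Kinetochore and centromere genes included the member with the largest increase. Cenpf, a large kinetochore and nuclear matrix protein of G2 and M (chr1:189640606-189688086, mm10, minus strand), measured 36.6, 42.9, 36.8 and 40.3 CPM in WT and 52.8, 54.8, 46.9 and 53.1 CPM in Hint1-/- samples. Hint1-/- replicate 3 was the lowest of its genotype and still lay above all WT samples. Cenpf thus differed by 0.41 on the log2 scale (SE 0.05, adjusted p = 2.4e-05). Of the 7 genes in the group 5 rose, the others being Cenpe (0.25), the kinesin of chromosome congression, Ndc80 (0.19) and Nuf2 (0.14), which bind microtubules, and Cenpa (0.15), the centromeric histone. Spc24 (0.14, adjusted p = 0.274) and Spc25 (0.09, adjusted p = 0.194), the other arm of the NDC80 complex, did not pass. With each sample left out in turn, Cenpa and Nuf2 each lost their call in 5 fits. The adjusted p reached 0.119 for Cenpa (without Hint1-/- replicate 1) and 0.103 for Nuf2 (without WT replicate 4). Cenpa, Nuf2 and Ndc80 did not pass in DESeq2 (adjusted p = 0.0931, 0.0878 and 0.0579).

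In the chromosomal passenger complex, which corrects attachments and directs cytokinesis, 2 of 4 genes rose. Aurkb, its kinase, measured 33.8, 34.9, 34.4 and 31.7 CPM in WT and 40.0, 40.5, 39.0 and 39.6 CPM in Hint1-/- samples. The genotypes were apart, by 0.24 on the log2 scale (SE 0.04, adjusted p = 0.000412). Cdca8, encoding borealin, had a log2 fold change of 0.19. Incenp, the scaffold, had one of 0.08 that did not pass (adjusted p = 0.0948) although its genotypes did not overlap, and Birc5, encoding survivin, had one of 0.09 (adjusted p = 0.193) that passed without Hint1-/- replicate 4 (adjusted p = 0.0233).

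Mitotic kinesins, the motors of the spindle and midzone, had a median log2 fold change of 0.23, and 5 of 6 rose. Kif20b, a kinesin of the midzone and abscission (chr19:34922361-34975745, mm10, plus strand), measured 34.7, 39.0, 33.7 and 32.8 CPM in WT and 44.4, 44.2, 44.9 and 45.4 CPM in Hint1-/- samples. WT replicate 2 was highest of its genotype and the groups were apart (log2 fold change 0.35, SE 0.05, adjusted p = 3e-05). Kif2c, which depolymerizes microtubules at the centromere, measured 42.0, 42.5, 41.7 and 37.9 CPM in WT and 52.3, 48.2, 49.9 and 49.95 CPM in Hint1-/- samples. All Hint1-/- samples were higher, by 0.29 on the log2 scale (SE 0.04, adjusted p = 7.6e-05). Kif20a, a midzone kinesin, measured 99.9, 95.3, 98.5 and 97.3 CPM in WT and 121, 117, 113 and 117 CPM in Hint1-/- samples. It was higher in all Hint1-/- samples by 0.26 on the log2 scale (SE 0.03, adjusted p = 1.2e-05), but 29.3% of its exon bases overlap Cdc23 on the other strand. Kif4, a chromosome-bound kinesin, and Kif11, which separates the spindle poles, had log2 fold changes of 0.19 and 0.14, and Kif11 lost its call without Hint1-/- replicate 2 (adjusted p = 0.0759). Kif23, of the centralspindlin complex, had one of 0.09 (adjusted p = 0.184).

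Spindle assembly and pole genes had the highest median of the role groups, 0.28, and all 5 rose with no overlap between genotypes. Aspm, a spindle pole protein (chr1:139454772-139494091, mm10, plus strand), measured 24.2, 27.4, 26.3 and 24.6 CPM in WT and 29.9, 36.5, 31.5 and 36.1 CPM in Hint1-/- samples. The Hint1-/- samples were widely spaced but all higher (log2 fold change 0.39, SE 0.06, adjusted p = 0.000194). Hmmr, which organizes spindle microtubules (chr11:40701395-40733422, mm10, minus strand), measured 64.7, 69.0, 64.2 and 60.9 CPM in WT and 79.2, 85.2, 78.5 and 79.2 CPM in Hint1-/- samples. Replicate 2 was the highest in both genotypes, and the ranges were apart (log2 fold change 0.32, SE 0.04, adjusted p = 1.7e-05). Dlgap5, a stabilizer of kinetochore fibers, measured 45.1, 46.2, 42.8 and 41.7 CPM in WT and 53.7, 54.9, 53.6 and 51.1 CPM in Hint1-/- samples. It was higher in all Hint1-/- samples by 0.28 on the log2 scale (SE 0.04, adjusted p = 6.6e-05). Nusap1 (0.25), a microtubule bundler, and Tpx2 (0.14), which activates Aurora A on the spindle, also rose.

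Cytokinesis genes were led by Anln and Prc1, and 3 of 4 rose. Anln, encoding the contractile ring scaffold anillin, measured 126, 136, 125 and 123 CPM in WT and 161, 162, 152 and 155 CPM in Hint1-/- samples. The gap between the genotypes exceeded the range within either (log2 fold change 0.30, SE 0.04, adjusted p = 8e-06). Prc1, which bundles midzone microtubules, measured 95.5, 100.9, 97.7 and 89.8 CPM in WT and 119, 123, 115 and 116 CPM in Hint1-/- samples. Its genotypes were apart as well (log2 fold change 0.30, SE 0.04, adjusted p = 1.1e-05), with 11.1% of its exon bases shared with Rccd1. Racgap1, the GTPase-activating part of centralspindlin, had a log2 fold change of 0.15. Its call was lost in 3 fits with 1 sample left out, at an adjusted p of up to 0.0909 (without Hint1-/- replicate 1). Ect2, the RhoA activator at the midzone, had a log2 fold change of 0.13 just outside the threshold (adjusted p = 0.0543). Ect2 passed without Hint1-/- replicate 3 (adjusted p = 0.015).

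Chromosome condensation and structure genes had a median of 0.14, and 6 of 7 rose. Top2a, the topoisomerase that disentangles sister chromatids, measured 189, 209, 194 and 175 CPM in WT and 210.2, 215, 212 and 210.4 CPM in Hint1-/- samples. WT replicate 2 came close to the Hint1-/- samples without reaching them (log2 fold change 0.14, SE 0.04, adjusted p = 0.0194), and the call was lost without WT replicate 4 (adjusted p = 0.0602). Mki67, the proliferation marker Ki-67 that coats mitotic chromosomes, measured 165, 198, 182 and 195 CPM in WT and 204, 221, 197 and 231 CPM in Hint1-/- samples. WT replicate 2 lay above Hint1-/- replicate 3, so the genotypes overlapped, and the log2 fold change of 0.20 (SE 0.05) passed at an adjusted p of 0.0105. Among the condensin subunits Smc2 (0.21), Ncapd2 (0.16), Ncaph (0.13) and Smc4 (0.13) rose, and Ncapg (0.11) did not pass (adjusted p = 0.185) but did without WT replicate 2 (adjusted p = 0.0214). Smc4 and Ncaph lost their calls with single samples left out, at adjusted p values of up to 0.122 (without Hint1-/- replicate 4) and 0.115 (without Hint1-/- replicate 2). Smc4 and Ncaph also did not pass in DESeq2 (adjusted p = 0.068 and 0.0953).

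Genes of mitotic exit and sister separation rose in 4 of 5 cases. Espl1, encoding separase, which cuts cohesin at anaphase, measured 31.5, 33.5, 29.0 and 30.8 CPM in WT and 37.2, 39.6, 36.2 and 37.3 CPM in Hint1-/- samples. No Hint1-/- sample reached down to the WT range (log2 fold change 0.27, SE 0.05, adjusted p = 0.000494). Pttg1, encoding securin, the inhibitor of separase, measured 33.0 ± 1.65 CPM in WT and 31.7 ± 2.08 CPM in Hint1-/- cells (SD, n = 4), and with Mybl2 it was 1 of the 2 members with a negative log2 fold change (-0.06, adjusted p = 0.496). Cdca3 (0.20), a trigger of WEE1 destruction, Ube2c (0.19), the ubiquitin-conjugating enzyme of the anaphase-promoting complex, and Cdc20 (0.15), its activator, rose. Ube2c shares 22.8% of its exon bases with Tnnc2 on the other strand.

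The 2 transcription factors of the G2/M program went in opposite directions. Foxm1 (chr6:128362967-128376146, mm10, plus strand) measured 82.7, 81.9, 84.2 and 73.5 CPM in WT and 94.0, 90.8, 88.5 and 88.4 CPM in Hint1-/- samples. It was higher in all Hint1-/- samples by 0.17 on the log2 scale (SE 0.04, adjusted p = 0.00718). Mybl2 (chr2:163054687-163084688, mm10, plus strand) measured 31.6, 34.5, 33.2 and 34.1 CPM in WT and 28.8, 29.6, 33.3 and 26.5 CPM in Hint1-/- samples. Hint1-/- replicate 3 lay inside the WT range, and the log2 fold change of -0.17 (SE 0.06) passed narrowly (adjusted p = 0.0401), was lost without Hint1-/- replicate 4 (adjusted p = 0.143) and with 5 other samples left out, and did not pass in DESeq2 (adjusted p = 0.0671).

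The ratio of Foxm1 to Mybl2 counts within a sample does not depend on library scaling. It was 2.62, 2.37, 2.53 and 2.16 in the WT samples and 3.27, 3.06, 2.66 and 3.34 in the Hint1-/- samples. The lowest Hint1-/- ratio lay above the highest WT ratio, and the means were 2.42 ± 0.20 and 3.08 ± 0.31 (SD, n = 4). The mean log2 ratio differed by 0.35 (exact two-sided permutation test, p = 0.0286, the smallest p that 4 against 4 samples can give). This ratio was chosen after the values of both genes were seen, so its p is no separate support for their opposite directions.

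Levels of the members spread widely. Per kilobase of annotated exon, the highest mean levels in WT cells were those of Ube2c (40.6 CPM per kb), Plk1 (34.6 CPM per kb) and Cdc20 (27.4 CPM per kb), and the lowest were those of Cdc25c (2.05 CPM per kb), Aspm (2.21 CPM per kb) and Cenpf (2.54 CPM per kb). In Hint1-/- cells the same genes measured 46.3, 41.3 and 30.3 CPM per kb and 2.43, 2.89 and 3.36 CPM per kb. The log2 fold change had a Spearman rho of 0.06 with mean CPM, 0.25 with exon length and -0.05 with GC content across the 53 members, which share libraries and are not independent. Over 13145 genes with a length the values were 0.15 for exon length and -0.09 for GC content, and with both trends removed 43 members were higher, all 41 of the earlier ones among them.

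Members also moved together between samples of 1 genotype. After each genotype's mean was taken out, the median Pearson r over the 1378 pairs of members across the 8 samples was 0.24, with 70.1% of pairs above 0, and pairs of all tested genes in the same range of CPM had a median of -0.0003. Anln (median r with the other members 0.53), Prc1 (0.51) and Hmmr (0.49) moved most with the rest, and Bub3 (-0.24), Aurka (-0.20) and Cdc25c (-0.14) least. WT replicate 2 had 46 of 53 members above its genotype mean and WT replicate 4 had 12. Hint1-/- replicate 2 had 41, and Hint1-/- replicates 3 and 4 had 18 and 17. The pairs share libraries, so these values are a description.

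Related genes outside the 53 members were read from 8 lists, and 0 of these genes passed both thresholds in edgeR. At an unadjusted p under 0.05 there were 61 of 131 tested genes in the 7 lists other than DNA replication and G1/S, beside 32.8% of all tested genes. At an adjusted p under 0.05, which the counts below use, 11.2% of all tested genes were higher and 10.2% lower. Of 26 other spindle and cytokinesis genes 18 rose and 0 fell, and their median log2 fold change was 0.17. Ckap2l, a spindle protein, rose by 0.31 on the log2 scale and Kif22, a chromosome-arm kinesin, by 0.28. Among other G2/M regulators 8 of 16 rose and 0 fell, with a median of 0.14, and the smallest adjusted p values were those of the centrosomal kinase Nek2 (log2 fold change 0.23) and the G2 protein Gtse1 (0.15). Of other kinetochore and checkpoint genes 5 of 34 rose (Spdl1, Oip5, Hjurp, Cenpq and Ska3) and 1 fell. Hjurp, the chaperone of CENP-A, had a log2 fold change of 0.28 and Cenpq one of 0.26, and the checkpoint gene that fell, Zw10, one of -0.12, with a median of 0.09 over the list.

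The counts in the remaining lists also stand beside 11.2% of all tested genes higher and 10.2% lower. Cohesin, shugoshin and condensin II genes rose in 3 of 15 cases, Rad21 (0.13), Sgo2a (0.24) and Sgo1, with a median of 0.08. Of 15 subunits of the anaphase-promoting complex 1 rose, Anapc2 (0.13), and the median was -0.01. Of 12 MuvB, DREAM and pocket protein genes 1 rose, the MuvB subunit Lin54 (0.18), and the median was 0.04. CDK inhibitors and arrest genes had a median of 0.09, with 5 of 13 tested genes higher (Cdkn1b, Cdkn2a, Cdkn2c, Cdkn2d and Ccng2) and 3 lower (Cdkn1a, Btg2 and Ccng1). Ccng2, an atypical cyclin linked to arrest, had a log2 fold change of 0.44, Cdkn2c, an inhibitor of CDK4 and CDK6, one of 0.28, the antiproliferative gene Btg2 one of -0.19 and Ccng1 one of -0.10.

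**Figure D4:**
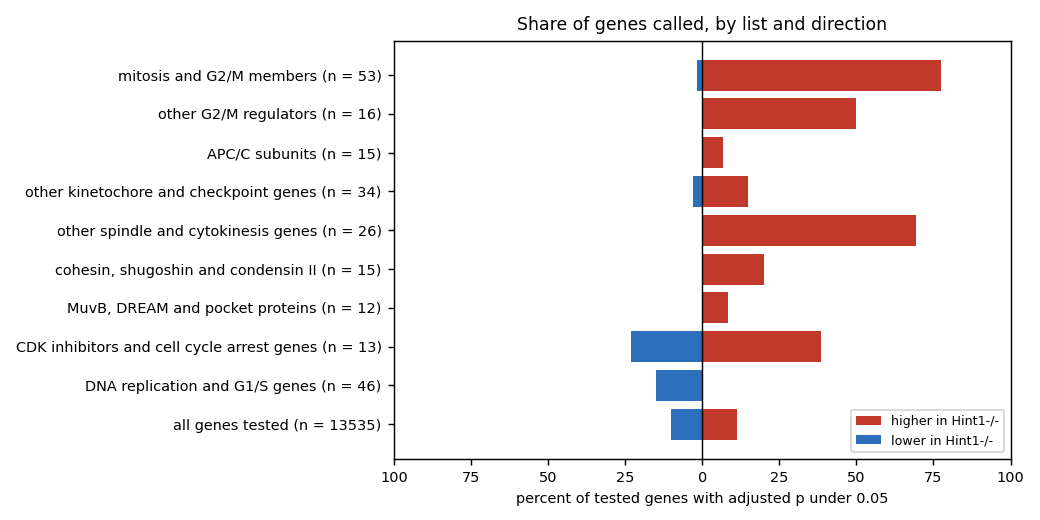
Percent of tested genes with an adjusted p under 0.05 that were higher (right, red) or lower (left, blue) in Hint1-/- cells, for the 53 members, the 8 related lists and all 13535 tested genes. The longest red bars are those of the members (77.4%) and of other spindle and cytokinesis genes, and the list of DNA replication and G1/S genes has a blue bar only.

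DNA replication and G1/S genes, which act earlier in the cycle, had a median on the other side of 0. In this list 0 of 46 genes were higher in edgeR and 7 were lower, beside 11.2% of all tested genes higher and 10.2% lower. Among the 7 was Ccnd1, the D-type cyclin of G1, from 669 ± 27.3 to 546 ± 6.44 CPM (SD, n = 4), or -0.29 on the log2 scale (SE 0.03, adjusted p = 3.23e-06). Cdk6, a partner kinase of cyclin D, had a log2 fold change of -0.24 (adjusted p = 2.44e-05). An unadjusted p under 0.05 was found for 14 of 46 genes in either direction, no larger a share than the 32.8% of all tested genes. The median log2 fold change was -0.06. The median level per sample of these genes was taken on the scale used for the members. It ran from -0.0004 to 0.06 in WT and from -0.06 to -0.001 in Hint1-/- samples. The genotype with the higher mitotic level thus had the lower G1/S level, but the nearest samples of the 2 genotypes almost touched (-0.0004 and -0.001). Within genotypes, member and G1/S genes had a median Pearson r of 0.14 over 2438 pairs. The difference between the 2 lists was not tested, since genes of a list are not replicates.

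**Figure D5:**
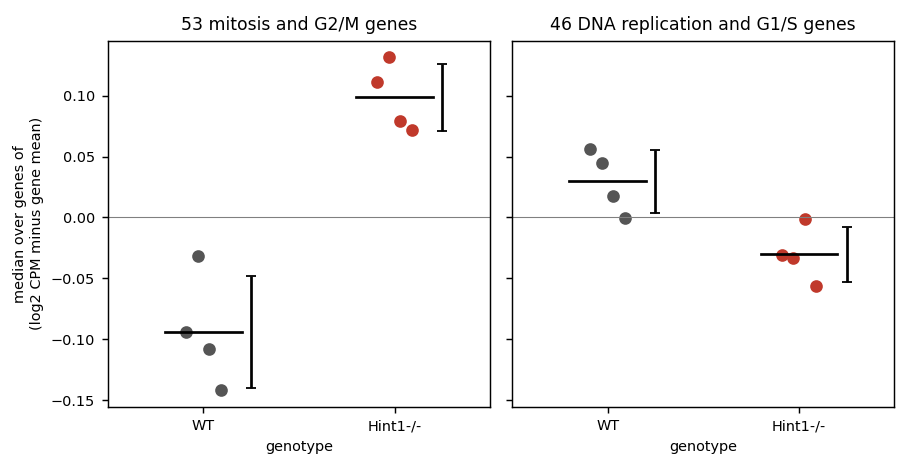
Median over genes of log2 CPM minus the gene's mean, in each of the 4 WT and 4 Hint1-/- samples, for the 53 members (left) and the 46 DNA replication and G1/S genes (right). Points are samples, horizontal lines are means and vertical bars are SDs. Member levels are all below 0 in WT and all above 0 in Hint1-/- samples. The G1/S levels are lower in Hint1-/- samples with almost no gap, the lowest WT level being -0.0004 and the highest Hint1-/- level -0.001.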

How the data were processed

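RNA-Seq of PDGF-BB-treated MASMCs was analysed for 4 WT and 4 Hint1-/- samples, grouped by the genotype in the sample labels. Libraries were made from oligo(dT)-selected mRNA and sequenced as 50-base reads. The authors deposited estimated counts per gene symbol, not normalized. The paper's methods name HISAT2 and mm10, and the submitters' processing notes name Bowtie2, RSEM 1.3.1 and DESeq2 1.4.5, with no roles. The strand setting and annotation are not given in the sources used here, so reads of overlapping genes cannot be told apart: exons of 15 members overlap another annotated gene. The overlap was largest for Kif20a (29.3% of exon bases), Ube2c (22.8%), Kif4 (15.1%), Ncapg (13.4%), Cdc25c (12.7%), Ccna2 (12.5%) and Prc1 (11.1%). The labels do not say whether samples of a genotype came from separate mice or cultures, so p-values measure the spread between these samples. If the samples of a genotype shared a culture, differences between genotypes and between cultures cannot be told apart.

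Estimated counts were rounded to whole numbers, filtered with filterByExpr, scaled by TMM and tested by edgeR 4.0.16 (glmQLFit and glmQLFTest, genotype as the only term) in R 4.3.3, with Benjamini-Hochberg adjustment over all 13535 genes tested. Thresholds were an adjusted p of 0.05 and a fold change of 1.5. The SE is the absolute log2 fold change over the square root of F. CPM values use TMM-scaled library sizes. The depth per sample differed by under 1% between samples, and members had at least 198 counts. Alternatives were DESeq2 1.42.0, limma 3.58.1 (voom), other scalings, other filters, a replicate block and each sample left out, and, chosen after seeing the data, removal of exon length and GC trends. The scripts were tested on simulated data. There edgeR recovered 42 of 67 genes changed 1.2-fold (62.7%) and 61 of 67 changed 1.5-fold (91%). A member that did not pass is therefore not shown to be unchanged. Positions and exon lengths came from GENCODE M21 and promoters from RefSeq, both on GRCm38 (mm10). The promoter search used Python 3.11.15.

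The members, role groups and related lists were chosen with earlier results of these data known. Sample values are given for 9 core regulators and for the 10 members with the largest change in each direction that passed an adjusted p of 0.05 without overlap between genotypes (10 higher, none of them a core regulator, and 0 lower were found). In related lists the 2 genes with the smallest adjusted p per direction are given with values, and other genes of short counts were named after their values were seen. Genotypes "overlap" where any Hint1-/- sample lies within or across the WT range.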

Additional observations from a re-analysis of the deposited data

Results flagged for a closer look

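Of 114 groups of 4 samples (the 53 members, Hint1, the median member level, the median G1/S level and the total counts, in each genotype), 5 held a sample whose gap to its nearest neighbour was an unusually large part of the group's range by Dixon's criterion, and about 5.7 would be marked by chance at 1 in 20. Cdc25c was lowest in Hint1-/- replicate 2, with a gap of 0.915 of the range. Spc25 was lowest in WT replicate 4, with a gap of 0.984 of the range. Kif2c was lowest in WT replicate 4 as well, at 0.843. Hmmr was highest in Hint1-/- replicate 2, at 0.881. Smc4 was highest in WT replicate 2, at 0.971.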

How the results depend on the processing

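Of the settings tried, 0 gave a member past both thresholds and 0 reversed the direction of a member, and 27 of the 41 higher members passed in every setting. The number of higher members was 31 with DESeq2, 40 with limma-voom, 41 with DESeq2 size factors, 38 with upper-quartile scaling, 35 with library sizes that leave out the 20 most abundant genes, 40 without a filter and 40 with at least 10 counts in every sample. Mybl2 was the 1 lower member, and the number of lower members was 0 with DESeq2 and 0 to 1 with each sample left out. The median log2 fold change of the members was 0.15 to 0.19 over all alternatives. The number of all genes past both thresholds was 383, and 108 when edgeR tested against the fold limit. With the replicate number as a block, 41 members were higher, 1 was lower and 382 genes passed both thresholds, with Bub1b lost (adjusted p = 0.0567) and Ect2 gained (adjusted p = 0.0455). Same-numbered samples of the genotypes had correlations of -0.045, 0.0814, 0.00875 and 0.023 in their deviations, 2 of 4 correlated best with their own number, and the numbers were not taken as pairs. The log2 difference in the ratio of Foxm1 to Mybl2 was 0.29 to 0.42 with each sample left out, where the smallest exact permutation p that can be reached is 0.0571. Members had at least 198 counts per sample, and with 4 samples per genotype changes of the size of Bub1b and Aurka sit at the edge of what passed.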
